A study of Homo sapiens with 6 samples.

Results

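Monocytes and macrophages recognise microbes, growth factors, antibodies and dying cells through receptors carried on their surface or in their endosomes, and 10 genes for such receptors were examined in human leukemia cells in which COX4I1 was targeted with CRISPR. The genes were chosen by symbol, as surface and endosomal markers of myeloid maturation, with earlier results of these data known, and are CD14, CSF1R, CSF3R, ITGAM, ITGAX, CD36, CD68, FCGR1A, CD33 and CD86. All 10 were among the 19845 symbols of the deposited table and among the 11861 genes with enough counts to be tested. At the mRNA level none of the 10 passed the test for a difference between COX4I1-targeted and control cells. In lists of related genes 5 of 111 tested, SCARB2, FGR and CD9 among them, passed and were higher. That is 4.50%, beside 2.08% of all genes tested in either direction. None of these 5 passed with control library #2 or COX4I1-targeted library #2 left out.

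The libraries came from Molm13, a cell line of acute myeloid leukemia (AML) with a rearranged MLL gene, which had been made to express the Cas9 nuclease. The cells were transduced with a lentiviral vector, ipUSEPR, carrying either a control guide RNA (sgCtrl) or a guide against COX4I1 (sgCOX4I1), and selected with puromycin. Each group had 3 libraries, each made with a different guide, numbered #1 to #3. Cas9, the vector and the selection were shared by both groups, and the study used the comparison to ask what loss of COX4I1 does to gene expression in these leukemia cells. All p-values measure the spread between cultures of 1 cell line that received different guides.

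COX4I1 is a nuclear-encoded subunit of cytochrome c oxidase, Complex IV of the mitochondrial respiratory chain. In normal blood formation, monocytes arise from granulocyte and monocyte progenitors under the transcription factor PU.1, encoded by SPI1, together with C/EBP and RUNX factors. Along this path cells gain CD14, CD11b (ITGAM), CD11c (ITGAX), CSF1R and Fc receptors, whereas CD33 is already present on early myeloid cells and on most AML blasts. AML blasts are arrested on this path, and their level of these receptors is used in the clinic to place them along it.

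The 6 libraries held from 17241014 to 30861943 counts, so a gene with 0 counts has an upper limit between 0.0972 and 0.174 CPM (each gene's share of a library's counts, scaled to a common total), from counting error only. CPM here are also scaled by TMM, a correction for differences in library composition, whose factors lay between 0.987 and 1.01. COX4I1 itself had 513, 501 and 462 CPM in sgCtrl #1 to #3 and 132, 377 and 133 CPM in sgCOX4I1 #1 to #3. The sgCOX4I1 #2 library thus kept 76.7% of the sgCtrl mean, against 26.7% and 27.0% in #1 and #3. Results that rest on sgCOX4I1 #2 are also given without it. These shares are of mRNA, and protein was not measured in these libraries, so #2 is not shown to have lost less protein. The paper reports reduced COX4I1 protein on immunoblots of cells transduced with independent COX4I1 guides. A log2 fold change of -1.21 ± 0.29 (SE) for COX4I1 had an adjusted p of 0.0512 by edgeR. All 8 genes of a list of myeloid leukemia identity (PTPRC, CD33, SPI1, FLT3, HOXA9, MEIS1, LYZ and MPO) were tested, at group means from 37.5 to 2716 CPM. Only MPO, a granule peroxidase of immature myeloid cells, was called among those 8, from 227 ± 8.27 CPM (SD, n = 3) to 109 ± 6.57 CPM (log2 fold change -1.06, adjusted p = 1.6e-05), and it is named because it was the one called. LYZ went the other way, from 1589 ± 479 to 2716 ± 600 CPM with overlapping groups (log2 fold change 0.77, adjusted p = 0.0534 by edgeR). It is named after its values were seen. By library, MPO had 117, 105 and 106 CPM in sgCOX4I1 #1 to #3, so #2 was not the highest for this gene. Of the 8 log2 fold changes 2 were above 0 and 6 below. Of 16 markers of other lineages, 5 were tested and 0 were called, and CD3D, HBB, HBA1, PF4, COL3A1 and EPCAM were among those with 0 counts in every library. The summed level of those 16 markers was 121 to 137 CPM in sgCtrl and 134 to 158 CPM in sgCOX4I1, most of it NCAM1 at 112 ± 10.9 and 134 ± 14.1 CPM, a gene singled out after its values were seen.

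The stretch of DNA in front of these genes was read for 9 of the 10 from the RefSeq promoter table (GRCh38.p14), which gives 250 bases before and 50 bases after each annotated start. The letters searched on both strands were GAGGAA, the core of the PU.1 site, TTNNGNAA, a pattern of the C/EBP site, TGTGGT, the core of the RUNX site, and TATAAA, the TATA box. Where TTCCTCAA occurs, the PU.1 core and the C/EBP letters match on the same bases. The promoters of CD14, CD68 and CD33 are shown, since CD14 had the largest log2 fold change of the 10 genes and CD68 and CD33 the smallest p-values, and capitals mark the matches to the PU.1 core and the C/EBP letters. They lie at chr5:140633126-140633425 on the minus strand, chr17:7579388-7579687 on the plus strand and chr19:51224830-51225129 on the plus strand.
CD14 promoter: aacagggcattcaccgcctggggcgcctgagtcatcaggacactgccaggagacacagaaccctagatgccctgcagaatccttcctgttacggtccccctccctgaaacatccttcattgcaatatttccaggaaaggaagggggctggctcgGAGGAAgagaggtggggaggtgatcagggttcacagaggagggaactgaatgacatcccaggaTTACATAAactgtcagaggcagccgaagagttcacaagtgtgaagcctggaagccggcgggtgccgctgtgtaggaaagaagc
CD68 promoter: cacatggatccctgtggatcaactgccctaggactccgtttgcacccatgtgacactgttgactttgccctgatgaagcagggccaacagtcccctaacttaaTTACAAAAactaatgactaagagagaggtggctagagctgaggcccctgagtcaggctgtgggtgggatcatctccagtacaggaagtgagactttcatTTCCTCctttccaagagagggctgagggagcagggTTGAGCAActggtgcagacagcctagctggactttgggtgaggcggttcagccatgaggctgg
CD33 promoter: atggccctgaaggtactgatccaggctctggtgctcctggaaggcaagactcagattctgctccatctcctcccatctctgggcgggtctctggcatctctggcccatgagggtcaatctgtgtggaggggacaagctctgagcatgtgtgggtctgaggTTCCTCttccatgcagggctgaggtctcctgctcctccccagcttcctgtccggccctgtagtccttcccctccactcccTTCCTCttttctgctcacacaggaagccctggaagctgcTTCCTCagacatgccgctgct
The CD14 window held 1 PU.1 core at 96 bases before the start and 1 C/EBP match at 33 bases before it. In the CD68 window 1 PU.1 core lay 48 bases before the start, between C/EBP matches at 147 and 13 bases before it. The CD33 window held 3 PU.1 cores, at 90 and 10 bases before and 29 bases after the start, and no match to the C/EBP letters. At least 1 window with a PU.1 core was found for 9 of 9 of these genes, against 31.8% of all 27305 genes in the table. C/EBP letters were found for 6 of the 9 (41.8% of all genes) and the RUNX core for 5 (15.6%). Counted by window, several of which overlap within a gene, 12 of 17 held the PU.1 core, against 27.9% of all 35116 windows, and 3 held TATAAA, against 11.5%. These matches describe the letters of the window and not binding in these cells.

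To compare the genes with each other, CPM were divided by the length in kilobases (kb) of the longest coding transcript in the GENCODE annotation of GRCh38. CD68, a heavily glycosylated protein of late endosomes and lysosomes that is the usual stain for macrophages, had the highest level in sgCtrl at 65.3 ± 9.07 CPM per kb (SD, n = 3). FCGR1A followed at 56.8 ± 2.54 and CSF3R at 54.5 ± 11.6 CPM per kb, and the libraries of these 3 genes overlapped in level. CD33 came next at 33.7 ± 1.21 CPM per kb, with no sgCtrl library in the range of the genes above or below it. ITGAX (18.5 ± 7.38), CSF1R (12.6 ± 1.09), ITGAM (11.4 ± 2.37) and CD36 (10.6 ± 1.48 CPM per kb) formed a group whose neighbours overlapped. CD86 at 4.08 ± 0.606 and CD14 at 1.89 ± 1.00 CPM per kb were lowest, each apart from its neighbour. In sgCOX4I1 the order was the same but for CD36, at 12.1 CPM per kb, which stood above ITGAM, at 10.2 CPM per kb, within overlapping libraries. The CD68 libraries stood above all FCGR1A libraries in sgCOX4I1 and not in sgCtrl. With the length of all exons merged instead, CD33 moved from place 4 to place 7, so its place depends on the length used.

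The co-receptor CD14, which hands bacterial lipopolysaccharide (LPS) to TLR4 and LY96, is the classical monocyte marker and lies at chr5:140631728-140633700 on the minus strand. It had 1.58, 2.88 and 4.86 CPM in sgCtrl #1 to #3 and 2.98, 4.59 and 5.31 CPM in sgCOX4I1 #1 to #3. The groups overlapped, since sgCtrl #3 lay above sgCOX4I1 #1 and #2. These levels rest on 29 to 166 counts per library. The log2 fold change, sgCOX4I1 against sgCtrl, was 0.46 ± 0.33 (SE) with a 95% interval from -0.25 to 1.17, and the adjusted p was 0.508 by edgeR. This interval reaches past 2-fold, so for CD14 a change of that size was not excluded at this depth and spread. Without sgCtrl #1 the log2 fold change of CD14 was 0.15 and without sgCtrl #3 it was 0.95, with adjusted p-values of 0.808 and 0.144. In bulk RNA less RNA per cell and fewer cells with the receptor cannot be told apart, and protein on the cell surface was not measured in these libraries.

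Growth factor receptors were next. CSF1R, the receptor tyrosine kinase for macrophage colony-stimulating factor, lies at chr5:150053291-150113372 on the minus strand and had 47.6, 47.7 and 55.2 CPM in sgCtrl and 43.3, 56.5 and 51.5 CPM in sgCOX4I1. Its lowest and its highest value were both in sgCOX4I1. For CSF1R a log2 fold change of 0.0065 ± 0.10 (SE) had a 95% interval from -0.21 to 0.23 and an adjusted p of 0.984. The receptor for granulocyte colony-stimulating factor, CSF3R, at chr1:36466043-36483278 on the minus strand, had 142, 207 and 215 CPM in sgCtrl and 146, 159 and 192 CPM in sgCOX4I1. The #2 and #3 libraries of sgCtrl stood above all of sgCOX4I1, and sgCtrl #1 stood below all of it. CSF3R had the lowest log2 fold change of the 10 genes, -0.18 ± 0.14 (SE; 95% interval from -0.48 to 0.11), and an adjusted p of 0.530. Without sgCtrl #1 it was -0.35 with an adjusted p of 0.0507, and without sgCtrl #3 it was -0.074 with an adjusted p of 0.842. The ratio of CSF3R to CSF1R counts was 2.99, 4.35 and 3.90 in sgCtrl and 3.37, 2.82 and 3.73 in sgCOX4I1, so the groups overlapped.

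The integrin alpha chains ITGAM and ITGAX pair with the beta chain ITGB2 to form complement receptors for opsonised particles, and they are neighbours at chr16:31259967-31332892 and chr16:31355134-31382999 on the plus strand. ITGAM had 44.7, 51.3 and 66.6 CPM in sgCtrl and 41.9, 50.4 and 53.4 CPM in sgCOX4I1. Apart from sgCtrl #3, which was highest, its libraries were interleaved. The log2 fold change of ITGAM was -0.16 ± 0.13 (SE; 95% interval from -0.44 to 0.12) with an adjusted p of 0.572. ITGAX had 52.0, 85.4 and 121 CPM in sgCtrl and 64.3, 92.6 and 105 CPM in sgCOX4I1. Both the lowest and the highest ITGAX library were in sgCtrl. For ITGAX the log2 fold change was 0.018 ± 0.23 (SE; 95% interval from -0.47 to 0.51) with an adjusted p of 0.981. Their partner ITGB2 had 439, 499 and 585 CPM in sgCtrl and 446, 638 and 579 CPM in sgCOX4I1, with a log2 fold change of 0.13 ± 0.13 (SE) and an adjusted p of 0.662. The ratio of ITGAX to ITGAM counts was 1.16, 1.66 and 1.81 in sgCtrl and 1.54, 1.84 and 1.96 in sgCOX4I1, with overlap. The ratio of ITGAM to ITGB2 counts was 0.102, 0.103 and 0.114 in sgCtrl and 0.0939, 0.0789 and 0.0923 in sgCOX4I1, without overlap. For ITGAX the ratio to ITGB2 was 0.119, 0.171 and 0.206 in sgCtrl and 0.144, 0.145 and 0.181 in sgCOX4I1, with overlap. These ratios were singled out after their values were seen, and no test was run on them.

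Uptake receptors came with CD36 and CD68. CD36, a class B scavenger receptor for oxidised lipoproteins, long-chain fatty acids and apoptotic cells, lies at chr7:80369575-80679277 on the plus strand. It had 42.6, 48.1 and 56.1 CPM in sgCtrl and 42.0, 69.1 and 55.3 CPM in sgCOX4I1. The sgCOX4I1 #2 library, the one that kept most COX4I1 mRNA, was the highest for CD36. Its log2 fold change was 0.17 ± 0.15 (SE; 95% interval from -0.14 to 0.49) with an adjusted p of 0.588, and -0.0069 without sgCOX4I1 #2. CD68, at chr17:7579491-7582111 on the plus strand, had 104, 109 and 134 CPM in sgCtrl and 108, 164 and 150 CPM in sgCOX4I1. The sgCOX4I1 #2 and #3 libraries stood above all of sgCtrl, and sgCOX4I1 #1 lay among the sgCtrl libraries. CD68 had the smallest p-value of the 10 genes, with a log2 fold change of 0.28 ± 0.13 (SE; 95% interval from -0.0028 to 0.57), an unadjusted p of 0.0520 and an adjusted p of 0.293 by edgeR. Leaving out sgCOX4I1 #1 gave 0.44 with an adjusted p of 0.0417, the only library whose removal brought a call among the 10 genes, and leaving out sgCOX4I1 #2 gave 0.16 with an adjusted p of 0.655. In the annotation 81.6% of the exonic bases of CD68 also belong to a long non-coding RNA on the same strand and 6.84% to another on the opposite strand, so its counts are uncertain.

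Fc receptor FCGR1A, the high-affinity receptor for IgG known as CD64, lies at chr1:149782671-149791675 on the plus strand and signals through the gamma chain FCER1G. It had 75.3, 72.5 and 79.2 CPM in sgCtrl and 67.9, 80.0 and 70.0 CPM in sgCOX4I1. Both the lowest and the highest library were in sgCOX4I1. The log2 fold change of FCGR1A was -0.062 ± 0.082 (SE; 95% interval from -0.24 to 0.12) with an adjusted p of 0.754. FCER1G had 7.41, 6.68 and 7.37 CPM in sgCtrl and 9.53, 6.86 and 9.94 CPM in sgCOX4I1, with a log2 fold change of 0.31 ± 0.16 (SE) and an adjusted p of 0.362. The FCGR1A transcript has near copies, and 48.4% of its 100-base windows also occur in other genes, the related FCGR1CP and FCGR1BP, so reads could be split among them. The table holds 1 such relative, FCGR1B, which is named here after its values were seen, with 5.77, 5.65 and 5.99 CPM in sgCtrl and 4.01, 4.76 and 4.28 CPM in sgCOX4I1. All 3 sgCOX4I1 libraries lay below sgCtrl for FCGR1B, with a log2 fold change of -0.42 ± 0.17 (SE) and an adjusted p of 0.217. The counts of FCGR1A and FCGR1B added together gave a log2 fold change of -0.084 ± 0.082 (SE) with an adjusted p of 0.650, in a fit added after the data were seen.

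CD33, an inhibitory lectin of the Siglec family that binds sialic acid and is a target of antibody therapy in AML, lies at chr19:51225064-51243860 on the plus strand. It had 51.4, 51.3 and 48.2 CPM in sgCtrl and 52.1, 59.4 and 55.7 CPM in sgCOX4I1. CD33 was the only one of the 10 genes whose groups did not overlap, with all 3 sgCOX4I1 libraries above all 3 of sgCtrl. Over all genes tested 21.6% had groups without overlap, 11.3% with sgCOX4I1 higher and 10.4% with it lower, so 1 of 10 is no more than the background. The gap between the nearest CD33 libraries, sgCtrl #1 and sgCOX4I1 #1, was smaller than the range within either group. The log2 fold change of CD33 was 0.15 ± 0.081 (SE; 95% interval from -0.027 to 0.32), with an unadjusted p of 0.0915 and an adjusted p of 0.377 by edgeR. CD86, the ligand by which mature antigen-presenting cells costimulate T cells through CD28, lies at chr3:122055362-122121139 on the plus strand. It had 10.6, 9.72 and 12.9 CPM in sgCtrl and 8.82, 11.4 and 12.6 CPM in sgCOX4I1. The CD86 libraries were interleaved, and the log2 fold change was -0.017 ± 0.16 (SE; 95% interval from -0.36 to 0.33) with an adjusted p of 0.974.

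**Figure D1:**
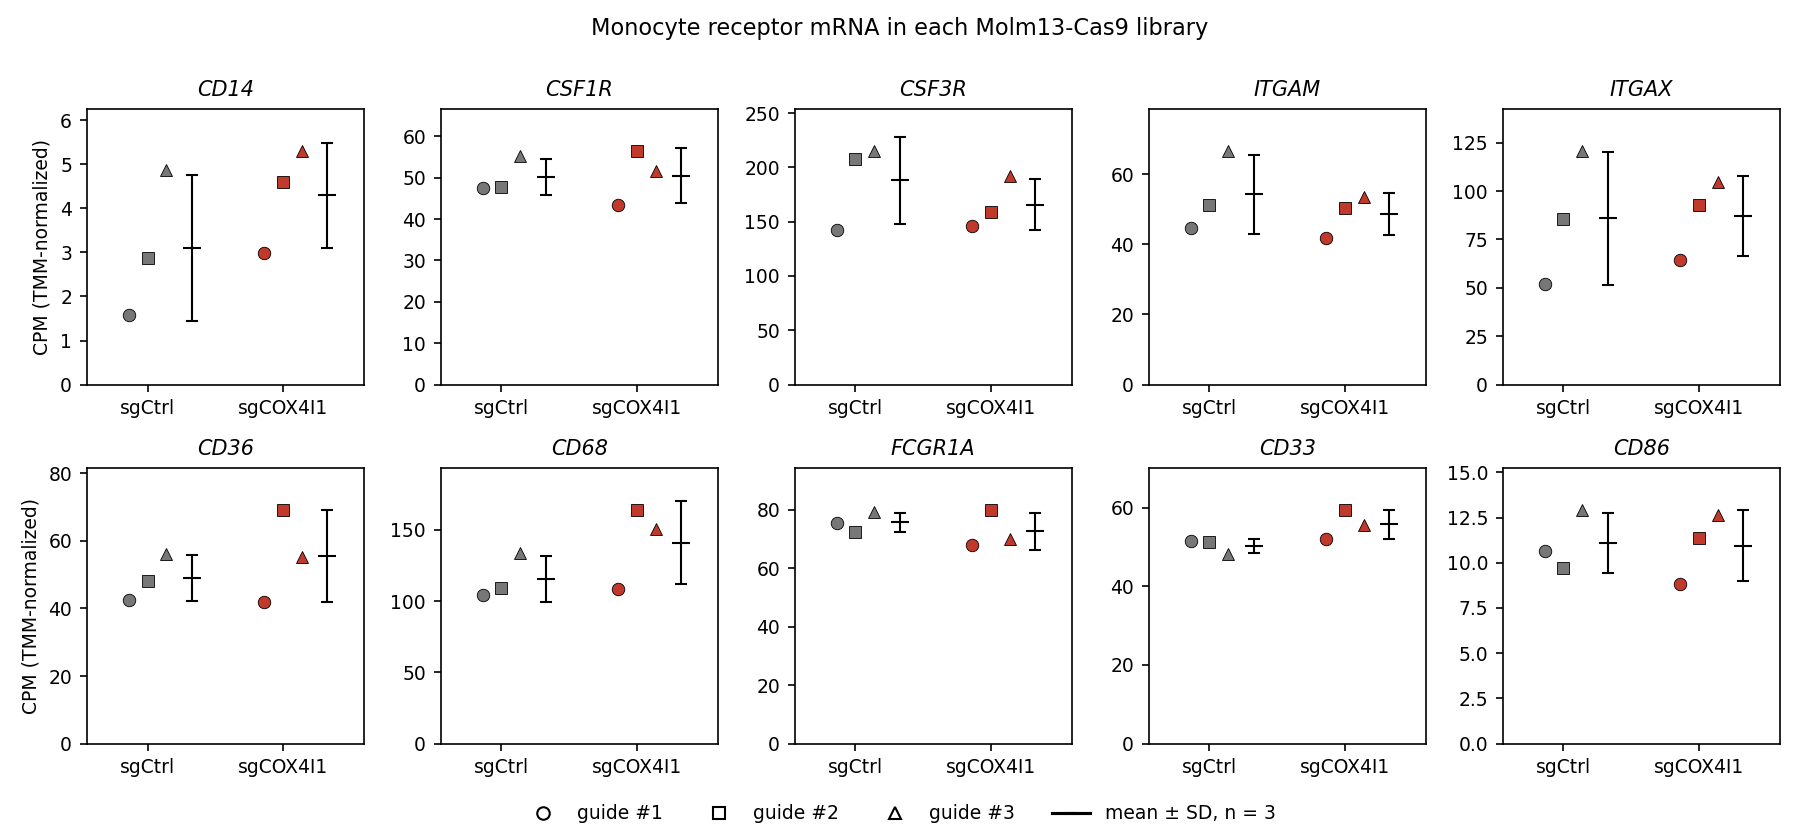
TMM-scaled CPM of the 10 receptor genes, 1 panel per gene, with 1 point per library (the marker gives the guide number) and the mean ± SD of each group of 3 beside the points. The groups overlap for 9 of the 10 genes, and for CD33 all sgCOX4I1 points lie above all sgCtrl points.

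Read together, 0 of the 10 receptor genes passed an adjusted p of 0.05 by edgeR and so were called, against 2.08% of all genes tested (1.06% higher and 1.02% lower in sgCOX4I1). None had an unadjusted p under 0.05, against 17.3% of all genes tested (8.9% higher and 8.41% lower). DESeq2 and limma-voom also called 0 of the 10, and with a change of at least 2-fold required as well, 0 were called against 0.202% of all genes. With the guide number as a block, edgeR called 1 of the 10, CD68 (adjusted p = 0.0355), and 1408 of the 11861 genes tested. Of the 10 log2 fold changes 6 were above 0 and 4 below, with a median of 0.012 beside -0.0023 over all genes tested. Without sgCOX4I1 #2, the library that kept most COX4I1 mRNA, 3 were above 0 and 7 below, and 0 were called. The balance moved the other way without sgCtrl #3, with 8 above and 2 below, and without sgCOX4I1 #1, with 7 above and 3 below. The 95% interval of 9 of the 10 lay inside a 2-fold change either way, CD14 being the exception, and the standard errors ran from 0.081 for CD33 to 0.33 for CD14, beside a median of 0.10 over all genes tested.

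**Figure D2:**
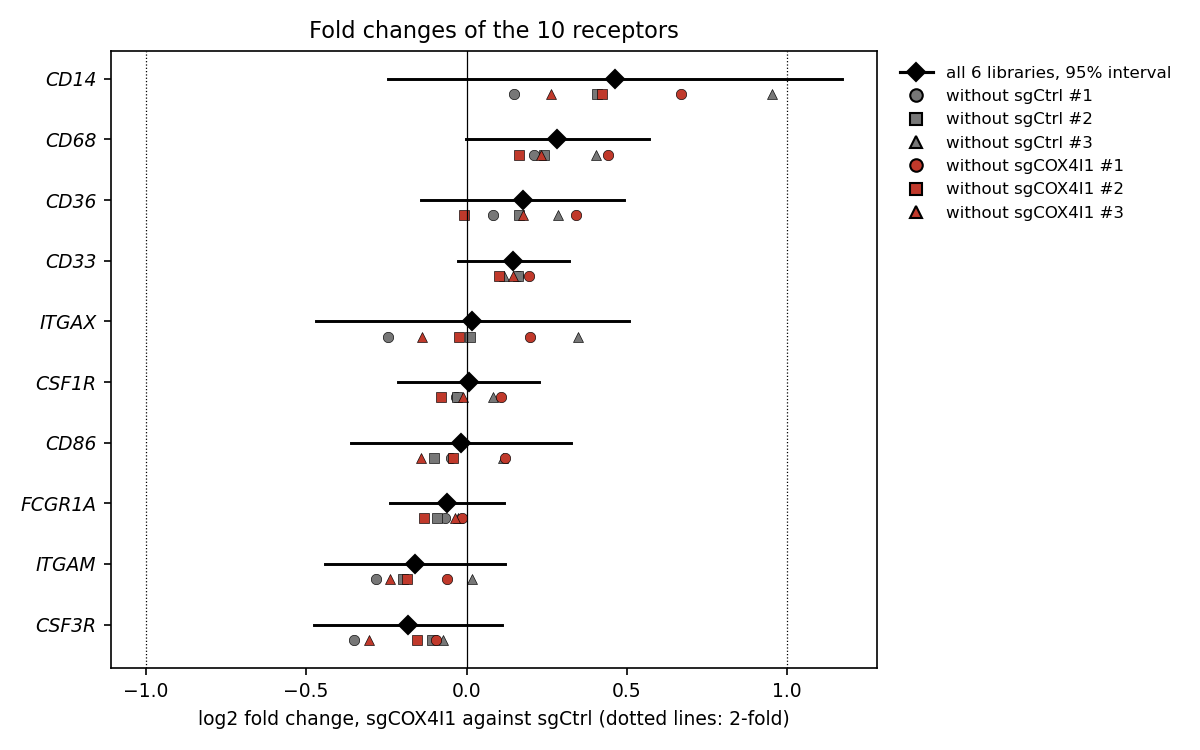
Log2 fold change, sgCOX4I1 against sgCtrl, of the 10 receptor genes with 95% intervals from edgeR. Black diamonds and bars use all 6 libraries, small markers below them leave out 1 library each, and dotted lines mark a 2-fold change, which only the CD14 interval crosses.

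The spread among guides within a group was larger than the difference between the groups for nearly all receptors. The range of log2 CPM within sgCtrl exceeded the size of the log2 fold change for 9 of the 10 genes, CD33 being the exception, and the range within sgCOX4I1 exceeded it for 10 of 10. These counts were not made over all genes tested, so they do not set the receptors apart from other genes. Within sgCtrl the highest library stood 3.08-fold above the lowest for CD14, 2.32-fold for ITGAX and 1.51-fold for CSF3R, but 1.07-fold for CD33. Within sgCOX4I1 the same ratio was 1.78-fold for CD14, 1.65-fold for CD36, 1.63-fold for ITGAX and 1.14-fold for CD33. The share of the variance in log2 CPM that lay between the groups had a median of 12.3% over the 10 genes, beside 23.3% over all genes tested, and ran from 0.0199% for CSF1R to 57.4% for CD33.

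Much of that spread was shared by the receptors. The sgCtrl #1 library was the lowest of its group for 7 of the 10 genes and sgCtrl #3 the highest for 9, whereas over all genes tested these libraries were lowest for 35.5% and highest for 32.8%. In sgCOX4I1, #1 was the lowest for all 10 genes (35.0% of all genes tested), and the highest value was in #2 for 5 genes and in #3 for 5. Summed over the 10 genes, the level was 572, 685 and 793 CPM in sgCtrl #1 to #3 and 577, 747 and 751 CPM in sgCOX4I1 #1 to #3. The sgCtrl #1 and sgCOX4I1 #1 libraries thus had like sums, and no other library came below 685 CPM. The sgCOX4I1 #1 and #3 libraries kept like shares of COX4I1 mRNA and differed in the receptors. Whether culture, guide or preparation accounts for these differences was not tested.

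**Figure D3:**
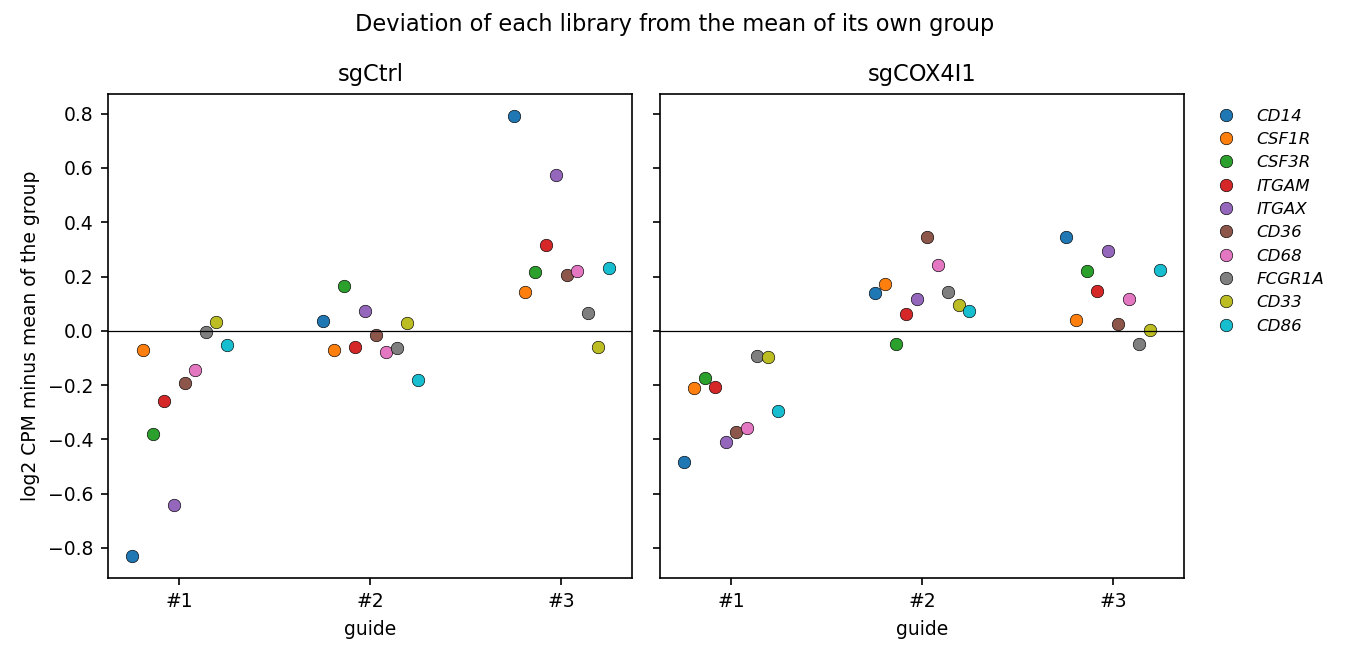
Log2 CPM of each receptor gene minus the mean of its own group, by guide number, for sgCtrl (left) and sgCOX4I1 (right). Each point is 1 gene in 1 library. All points of sgCtrl #3 but that of CD33 are above 0, and all points of sgCOX4I1 #1 are below 0.

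Related genes were followed in 9 companion lists with 135 genes, of which 111 were tested and 24 were not. Those not tested reached at most 0.786 CPM in any library. Of the 111, 5 were called and all 5 were higher in sgCOX4I1, which is 4.50% beside 2.08% of all genes tested. Of all 111 log2 fold changes 76 were above 0 and 35 below, with a median of 0.12 beside -0.0023 over all genes tested. Signs, here and for each list, were not counted over all genes tested or with a library left out. Without sgCtrl #2 or without sgCOX4I1 #2 none of the 111 was called. Groups did not overlap for 22.5% of the 111, 15 higher and 10 lower in sgCOX4I1, beside 21.6% of all genes tested. The lists were written with earlier results of these data known, so these counts are descriptions.

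Scavenger receptors and lysosomal glycoproteins had the highest median of the 9 lists, 0.35 on the log2 scale, with 10 of 11 tested genes above 0 and 1 called. SCARB2, a lysosomal membrane protein of the CD36 family that carries glucocerebrosidase to lysosomes, had 19.3, 17.7 and 20.4 CPM in sgCtrl and 25.8, 30.6 and 31.4 CPM in sgCOX4I1. All sgCOX4I1 libraries were above all of sgCtrl, with a log2 fold change of 0.61 ± 0.11 (SE) and an adjusted p of 0.0129. The oxidised lipoprotein receptor OLR1 (1.42, adjusted p = 0.106) and the macrophage receptor MARCO (0.69, adjusted p = 0.130) had larger log2 fold changes that did not pass. Among 12 tested Fc receptors and adaptors 1 was called, FGR, a Src-family kinase of myeloid cells that acts downstream of Fc receptors and integrins. FGR had 14.4, 20.4 and 23.8 CPM in sgCtrl and 28.5, 38.1 and 33.1 CPM in sgCOX4I1, without overlap, and a log2 fold change of 0.76 ± 0.16 (SE; adjusted p = 0.0266). The adaptor TYROBP (0.36, adjusted p = 0.0635) and the IgE receptor chain FCER1A (1.68, adjusted p = 0.0640) did not pass, and FCER1A had group means of 0.298 and 0.946 CPM. The list's median was 0.10, with 9 of 12 genes above 0.

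Other surface markers of myeloid maturation had 1 call among 16 tested genes, 13 of them above 0, and a median of 0.15. CD9, a tetraspanin that organises membrane receptors, had 25.0, 28.9 and 34.3 CPM in sgCtrl and 39.2, 56.1 and 55.6 CPM in sgCOX4I1. Its groups did not overlap, and the log2 fold change was 0.77 ± 0.14 (SE; adjusted p = 0.0149). The ectoenzyme CD38 (0.59, adjusted p = 0.125) and the fractalkine receptor CX3CR1 of non-classical monocytes (-0.45, adjusted p = 0.0628) lay on opposite sides of 0 and did not pass.

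The remaining lists built around surface genes had 0 calls each by edgeR. Of 15 tested genes of LPS and Toll-like receptors, with the adaptors and kinases listed beside them, 9 were above 0 (median 0.042). The smallest p-values belonged to the nucleic acid sensor TLR8 (0.60, adjusted p = 0.247), TLR1 (0.34, adjusted p = 0.312) and TLR6 (-0.23, adjusted p = 0.312). Of 13 leukocyte integrins and activators 8 were above 0 (median 0.043). The laminin receptor chain ITGA6 came nearest to a call among them, with 3.32, 3.64 and 5.40 CPM in sgCtrl and 4.59, 11.4 and 11.0 CPM in sgCOX4I1, a log2 fold change of 1.12 and an adjusted p of 0.0698. ITGAV (0.38, adjusted p = 0.146) and ITGAL, the alpha chain of LFA-1 (-0.25, adjusted p = 0.150), followed. The 12 colony-stimulating factor and cytokine receptor genes, 8 of them above 0, had a median of 0.13. Among these, the interferon gamma receptor IFNGR1 had a log2 fold change of 0.31 (adjusted p = 0.0979), CSF1, a ligand of CSF1R, 1.13 (adjusted p = 0.188) and the progenitor kinase FLT3 -0.23 (adjusted p = 0.190). Group means of CSF1 were 1.50 and 3.40 CPM. The list of Siglecs, the family of CD33, with other inhibitory receptors and phosphatases had 13 of 17 above 0 and a median of 0.18. It was led by LILRB1 (0.38, adjusted p = 0.165), the phosphatase PTPN11 (0.20, adjusted p = 0.196) and CD22 (0.83, adjusted p = 0.217). Costimulatory ligands, the list built around CD86, had 3 of 6 above 0 and a median of 0.052, with CD276 at 0.36 (adjusted p = 0.604), VSIR at 0.11 (adjusted p = 0.584) and TNFSF9 at -0.062 (adjusted p = 0.726).

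**Figure D4:**
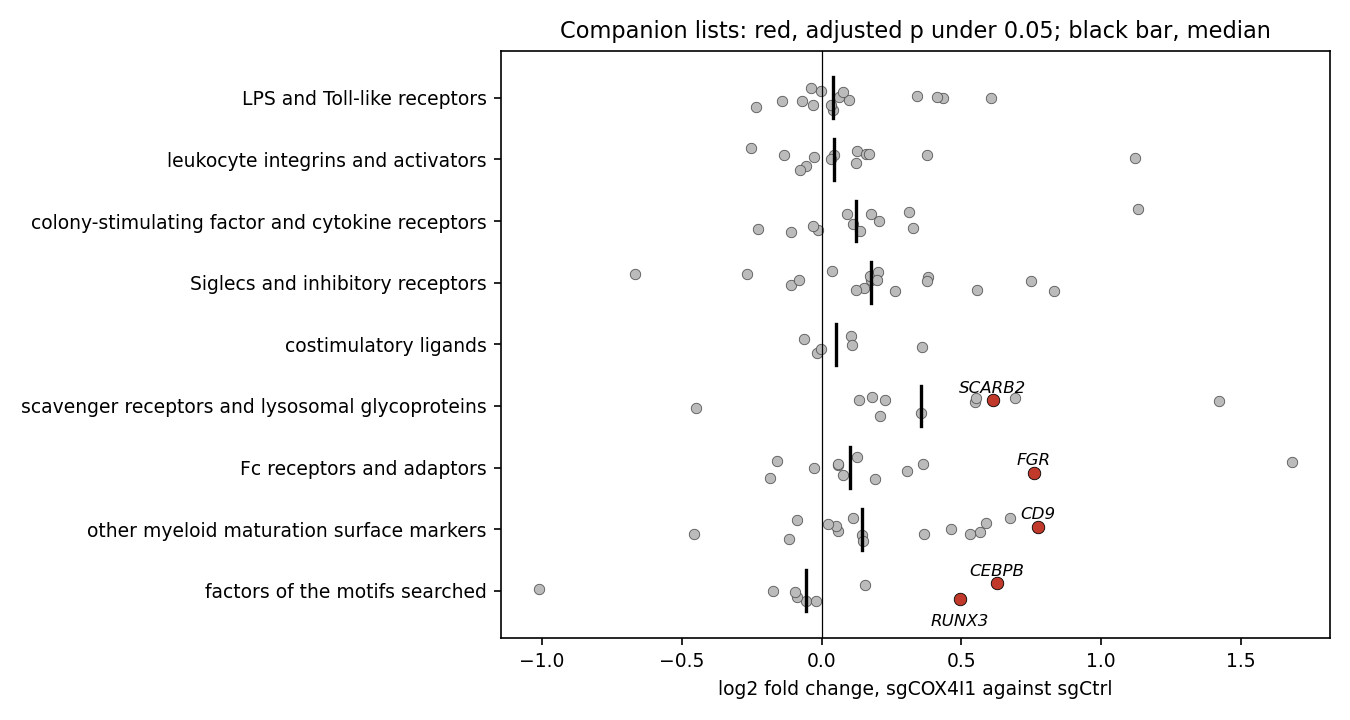
Log2 fold change, sgCOX4I1 against sgCtrl, of the 111 tested genes of the 9 companion lists, 1 row per list. Each point is 1 gene, the black bar is the list's median and red points are the 5 genes called at an adjusted p under 0.05, all of them to the right of 0.

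Factors that bind the motifs searched in the promoters were the last list, with 9 tested genes. Both called members were higher in sgCOX4I1, while 6 of the 9 lay below 0 and the median was -0.055. CEBPB, a C/EBP factor induced in inflammatory and maturing myeloid cells, had 40.9, 39.8 and 47.9 CPM in sgCtrl and 53.7, 81.5 and 64.2 CPM in sgCOX4I1. Its groups did not overlap, and the log2 fold change was 0.63 ± 0.13 (SE; adjusted p = 0.0259). RUNX3 had 22.6, 25.1 and 29.1 CPM in sgCtrl and 34.0, 38.7 and 35.7 CPM in sgCOX4I1, without overlap, and a log2 fold change of 0.49 ± 0.11 (SE; adjusted p = 0.0318). CEBPE, a factor of late granulocyte maturation, had a log2 fold change of -1.01 (adjusted p = 0.154). CEBPA, SPI1 and RUNX1 had higher levels than the called genes, with sgCtrl means of 849, 351 and 211 CPM. In sgCOX4I1 their means were 798, 338 and 197 CPM. Their log2 fold changes were -0.089, -0.055 and -0.096, with adjusted p-values of 0.721, 0.806 and 0.503 by edgeR. These genes are named after their values were seen. The printed promoters of CD14 and CD68 hold PU.1 cores and C/EBP letters, and that of CD33 holds PU.1 cores alone of these. Their log2 fold changes were 0.46, 0.28 and 0.15, and none was called. C/EBP letters were also found for CSF1R, CSF3R, CD36 and CD86, at 0.0065, -0.18, 0.17 and -0.017, none of them called. Whether any of these factors acts on those promoters was not tested.

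The 5 calls in the companion lists were lost with either #2 library left out, and 4 of them with sgCOX4I1 #3 left out. Without sgCtrl #2 the log2 fold changes were 0.56 for SCARB2, 0.79 for FGR, 0.76 for CD9, 0.58 for CEBPB and 0.48 for RUNX3, with adjusted p-values from 0.132 to 0.220, and the calls over all genes tested went from 247 to 24. Without sgCOX4I1 #2 the adjusted p-values ran from 0.0799 to 0.144, with 51 calls over all genes. Without sgCOX4I1 #3, with 89 calls over all genes, CD9 was called at 0.0497 and the other 4 had adjusted p-values from 0.0522 to 0.0852. The log2 fold changes of SCARB2 (0.56 to 0.70), FGR (0.58 to 0.93), CD9 (0.67 to 0.93), CEBPB (0.46 to 0.76) and RUNX3 (0.41 to 0.60) stayed above 0 under every alternative and with each library left out.

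**Figure D5:**
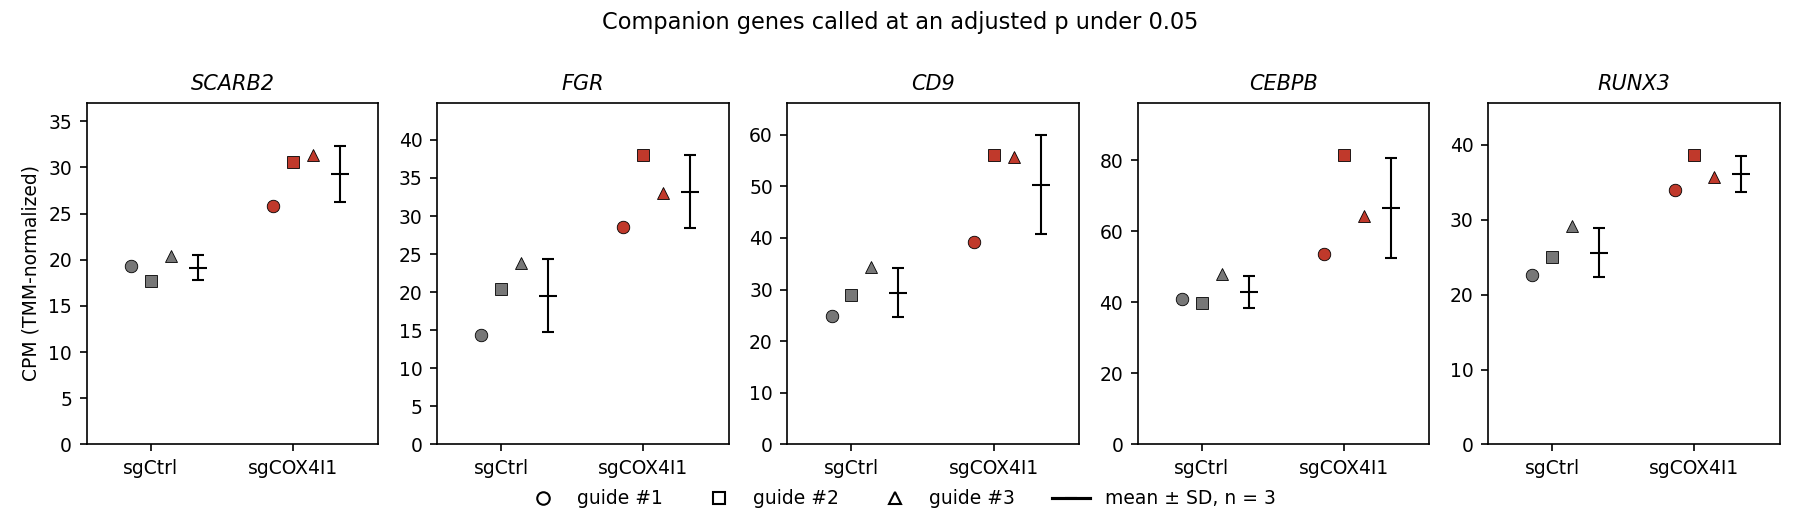
TMM-scaled CPM of SCARB2, FGR, CD9, CEBPB and RUNX3, with 1 point per library (the marker gives the guide number) and the mean ± SD of each group of 3 beside the points. The genes were picked by their adjusted p, and in each panel all sgCOX4I1 points lie above all sgCtrl points.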

How the data were processed

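RNA was sequenced from 6 Molm13-Cas9 libraries, 3 with sgCtrl and 3 with sgCOX4I1. The authors deposited raw counts per gene symbol, whole numbers without normalization, in 1 table whose 6 columns were matched to samples by letter (C or K) and guide number. The methods name Trimmomatic, Bowtie2 and RSEM, whereas the submitters' processing notes name bcl2fastq 2.20.0.422, STAR 2.6.0a and edgeR. The column names point to STAR, marked duplicates and HTSeq. The strand setting of the counting was not given in the sources used here.

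Counts were tested in R 4.3.3 with edgeR 4.0.16 (TMM, filterByExpr, quasi-likelihood test, no covariates), with Benjamini-Hochberg adjustment over all 11861 genes tested and a call at an adjusted p under 0.05. The test was checked on simulated data, where edgeR recovered 195 of 197 genes changed 3-fold among 11773, with 7 false calls. Smaller changes were not simulated, so this does not show how often changes of the size estimated for the receptors would be called. Alternatives were DESeq2 1.42.0, limma-voom (limma 3.58.1), library size without TMM, other filters, a 2-fold threshold, the guide number as a block and each library left out. Every pair of replicates differed beyond sampling noise (chi-square divided by its degrees of freedom between 10.6 and 26.6).

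The genes and lists (9 companion lists, identity and other lineages) were chosen with earlier results of these data known. Named were the 10 receptors, COX4I1, ITGB2, FCER1G and up to 3 tested genes with the smallest p of each companion list. The identity and other-lineage genes were given by range, apart from those at 0 in every library, and exceptions are marked in the text. Gene positions, lengths and shared exons are from GENCODE 44, which was not matched to the annotation behind the deposited counts.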

Additional observations from a re-analysis of the deposited data

How the results depend on the processing

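CD14 rests on 29 to 166 counts per library and had the widest interval of the 10 receptors, and CD68 and FCGR1A share sequence or exons with other genes. The 10 receptors held 0 calls under DESeq2, limma-voom, library size without TMM, no filter, at least 10 counts in every library and the 2-fold threshold, and 0 to 1 with a library left out (CD68 without sgCOX4I1 #1). The median log2 fold change of the 10 ran from -0.040 to 0.16 with a library left out. CSF1R changed sign under limma-voom (-0.0040).

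With a library left out, log2 fold changes that crossed 0 were those of CSF1R (-0.078 to 0.11), ITGAX (-0.24 to 0.35), CD86 (-0.14 to 0.12), ITGAM (-0.28 to 0.018) and CD36 (-0.0069 to 0.34). CD14, CD68 and CD33 stayed above 0 and CSF3R and FCGR1A below 0 in all those fits.

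Over all genes, 247 calls became 456 with DESeq2, 537 with no filter on low counts and 24 with the 2-fold threshold, and ran from 24 (without sgCtrl #2) to 561 (without sgCtrl #1) with a library left out, with 51 without sgCOX4I1 #2 and 89 without sgCOX4I1 #3. The 5 calls in the companion lists became 8 with DESeq2 and 13 with no filter, and ran from 0 to 10 with a library left out. The share of calls that were higher was 62.6% without sgCOX4I1 #1 and 40.5% without sgCtrl #1, beside 51.0% with all libraries. The cause of these changes was not tested.

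Like guide numbers went together for #1 and #3 and not for #2. Deviations from the group means correlated at 0.457, -0.021 and 0.344 for #1, #2 and #3 across all genes tested. Among unlike numbers, sgCtrl #3 correlated with sgCOX4I1 #1 at -0.452 and sgCtrl #1 with sgCOX4I1 #3 at -0.381. The sgCtrl #2 library correlated best with sgCOX4I1 #3 (0.080). The labels name no batch shared by like numbers, and the main fit used no pairing. With the number as a replicate block, 1408 genes, 28 companion genes and 1 receptor were called, the receptor being CD68 with a log2 fold change of 0.27 and an adjusted p of 0.0355 by edgeR.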
